A study of Mus musculus with 6 samples.

Results

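The transcripts described here are those of the mitochondrial solute carriers of the SLC25 family, measured in fetal liver erythroid cells labelled Tfam WT or Tfam KO. Members were the genes whose symbol in the deposited table is Slc25a followed by a number, or Ucp1, Ucp2 or Ucp3, leaving out Slc25a1, Slc25a20, Slc25a37 and Slc25a38. This gave 46 genes of 23094 named rows. Membership was set by symbol, though the members were chosen with earlier results of these data known. Of the 46, 28 had a mean of at least 1 RPKM (reads per kilobase of transcript, scaled to the library's mapped reads) over the 6 libraries and entered the test. The other 18 are given by their levels only. RNA came from C57BL/6 fetuses at embryonic day 13.5, from cells sorted as positive for CD71, the transferrin receptor, and for Ter119, an antigen of the red cell lineage. Each group had 3 libraries, numbered 1 to 3. The labels name no Cre driver, litter, sex or batch and leave unsaid if each library is a different fetus, so p-values here reflect only the spread among these libraries.

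SLC25 proteins sit mostly in the inner mitochondrial membrane and exchange metabolites between cytosol and matrix: ADP for ATP, phosphate, organic acids, amino acids, nucleotides and cofactors. All are encoded in the nucleus and are built from a tandem repeat of paired membrane helices. Maturing erythroblasts depend on mitochondrial transport because heme synthesis begins and ends in the matrix. Tfam is the protein that compacts the mitochondrial genome and helps to transcribe it, so its loss bears on the respiratory chain whose substrates and products these carriers move. The comparison asks whether carrier transcripts differ when Tfam is deleted.

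Tfam itself was at 7.22, 8.44 and 5.72 RPKM in WT replicates 1 to 3 and at 5.92, 7.22 and 6.25 RPKM in KO replicates 1 to 3. All KO values lay inside the WT range, with p = 0.7 in an exact permutation test (two-sided, 0.1 being the smallest this design allows). Gene-level values do not separate a deleted exon from those left, so the label of a library is not tested by this level, and KO and WT are used as labelled. All 13 erythroid markers searched were on tested rows, with summed levels of 11330 to 15530 RPKM in WT and 11020 to 14600 RPKM in KO. Markers of other cells had lower sums. Macrophage markers summed to 12.6 to 19.2 RPKM in WT and 4.69 to 12.1 in KO (12 found, Cd163 at 0 throughout), and hepatocyte markers to 42.2 to 87.9 and 15.3 to 140 RPKM (10 found, none at 0 throughout). Megakaryocyte markers summed to 34.0 to 63.1 and 18.9 to 73.3 RPKM (9 found), and neutrophil markers to 39.9 to 174 and 29.3 to 75.5 RPKM (9 found). The neutrophil sum of 174 RPKM was that of WT replicate 3. WT replicate 3 stood apart. Its RPKM sum was 814665 against 422534 to 535013 in the others, and its log2 values correlated with theirs at no more than 0.962 across genes, where the closest pair among the others reached 0.986. Results are therefore given with and without it.

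Carrier transcripts spanned a wide range of levels, and a few genes made up most of the pool. Ucp2, an uncoupling protein common in blood cells, was the most abundant of the 46 members, at a mean of 1085 RPKM over the 6 libraries. It was followed by Slc25a39, which imports glutathione into mitochondria (672 RPKM), and by Slc25a5, the ADP/ATP carrier of proliferating cells (306 RPKM). Slc25a3, the phosphate carrier that feeds ATP synthase, was at 139 RPKM and Slc25a51, the carrier for NAD, at 123 RPKM. These 5 genes held 90.8% to 95.1% of the summed RPKM of the 46 members in every library. Slc25a37 and Slc25a38, which the rule leaves out, were at means of 2867 and 217 RPKM and enter no sum or ranking here. A further 6 members lay between 10 and 100 RPKM, 17 between 1 and 10, and 18 below 1. The sum over the 46 members was 2269, 1972 and 3707 RPKM in WT and 2280, 2070 and 2733 in KO. That was 0.455% to 0.492% of all RPKM in the WT libraries and 0.479% to 0.538% in the KO libraries. The groups overlapped on both scales.

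**Figure D1:**
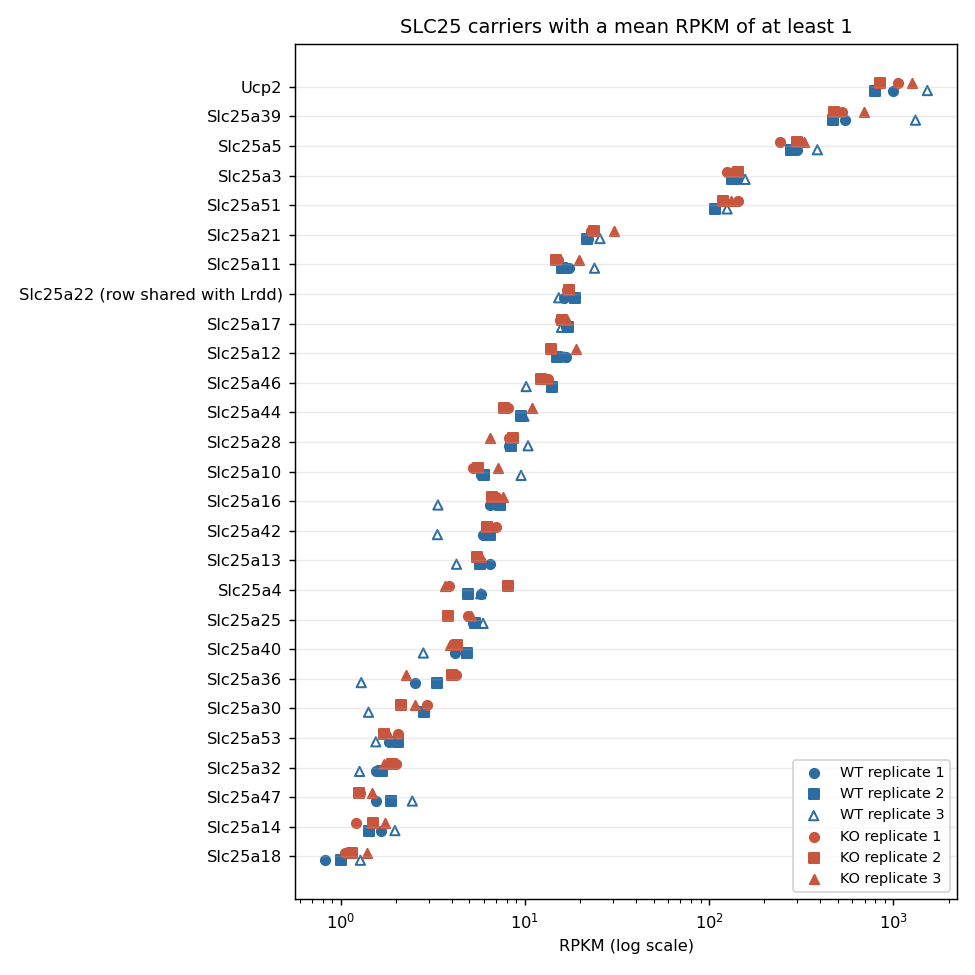
RPKM (log scale) of 27 of the 28 SLC25 carriers with a mean of at least 1 RPKM, ordered by mean level, with 1 point per library (blue WT, red KO, symbols by replicate number, open triangle WT replicate 3). Levels run from about 1 RPKM to 1534 RPKM for Ucp2, and 5 genes lie above 100 RPKM in every library.

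Ucp2 exceeded Slc25a39 in each library, by a ratio of 1.82, 1.70 and 1.16 in WT and 2.03, 1.79 and 1.82 in KO. The share of Ucp2 in the pool of the 46 members was 40.5% to 43.8% in WT and 41.2% to 46.9% in KO. Slc25a39 took 23.1% to 25.3% in the KO libraries and 23.8%, 24.0% and 35.7% in the WT libraries, the last in WT replicate 3. Apart from that library its share lay within 23.1% to 25.3%.

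**Figure D2:**
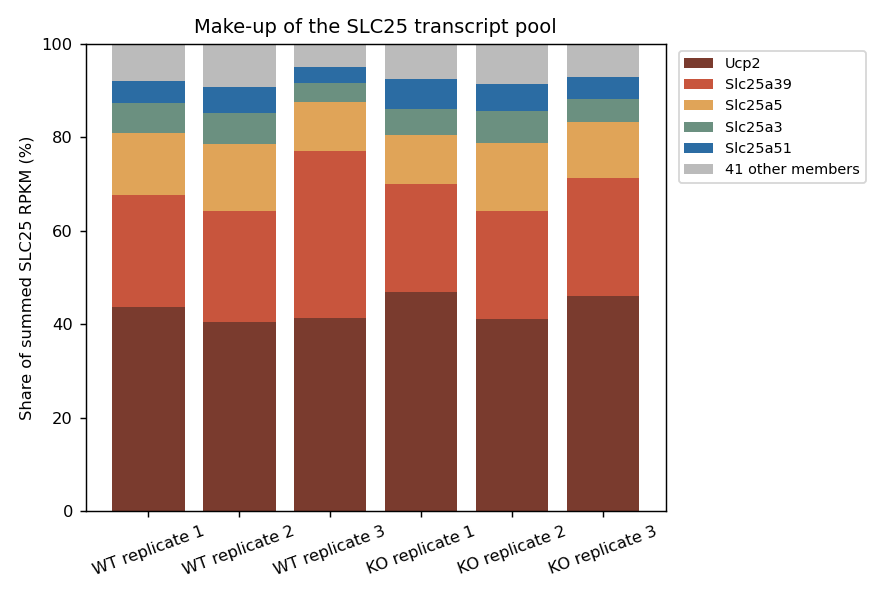
Share of the summed RPKM of the 46 members (%), with 1 stacked bar per library. Parts are Ucp2, Slc25a39, Slc25a5, Slc25a3, Slc25a51 and all other members together. Ucp2 takes 40.5% to 46.9%, and Slc25a39 takes 35.7% in WT replicate 3 against 23.1% to 25.3% elsewhere.

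Ucp2 and Ucp3 are neighbouring genes at opposite ends of the range: Ucp3, the skeletal muscle uncoupling protein, reached at most 0.0832 RPKM. The sequences before the start sites of the 3 most abundant members are therefore shown with that of Ucp3. Each is the 250 bases before the RefSeq start on build GRCm38.p6, written 5′ to 3′ on the gene's strand. Capitals mark matches, on either strand, to CCACNCCC, a CACCC-type word as bound by erythroid Krüppel-like factors, or to a GATA word. Counted as GATA words were AGATAA and likewise TGATAA, with AGATAG as a further form beside TGATAG.
Ucp2 (chr7:100493108-100493357, plus strand): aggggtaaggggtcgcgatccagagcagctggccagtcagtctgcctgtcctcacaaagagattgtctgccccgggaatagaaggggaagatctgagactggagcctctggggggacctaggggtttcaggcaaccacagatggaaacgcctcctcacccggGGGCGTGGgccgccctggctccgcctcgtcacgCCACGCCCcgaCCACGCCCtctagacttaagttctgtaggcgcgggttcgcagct
Ucp3 (chr7:100472741-100472990, plus strand): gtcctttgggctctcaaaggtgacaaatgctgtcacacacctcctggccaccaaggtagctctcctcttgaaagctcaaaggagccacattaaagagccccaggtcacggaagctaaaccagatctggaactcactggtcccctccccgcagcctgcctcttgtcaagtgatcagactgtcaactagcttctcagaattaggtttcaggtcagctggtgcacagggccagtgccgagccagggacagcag
Slc25a39 (chr11:102407518-102407767, minus strand): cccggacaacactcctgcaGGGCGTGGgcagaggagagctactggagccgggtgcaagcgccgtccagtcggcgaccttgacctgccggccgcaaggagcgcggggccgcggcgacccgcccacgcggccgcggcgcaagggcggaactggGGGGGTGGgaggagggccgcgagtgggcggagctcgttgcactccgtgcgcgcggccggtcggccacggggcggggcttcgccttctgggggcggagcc
Slc25a5 (chrX:36795347-36795596, plus strand): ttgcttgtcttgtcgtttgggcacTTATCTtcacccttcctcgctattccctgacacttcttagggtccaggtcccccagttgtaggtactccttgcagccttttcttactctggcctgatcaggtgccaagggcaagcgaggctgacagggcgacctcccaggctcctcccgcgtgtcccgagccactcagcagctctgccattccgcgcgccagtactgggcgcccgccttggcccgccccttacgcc
The Ucp2 window held 3 matches to CCACNCCC and the Slc25a39 window 2, with no GATA word in either. The Slc25a5 window held 1 GATA word, and the Ucp3 window no match. RefSeq start sites were at hand for 36 of the 46 members, and the first listed for each gene was searched. CCACNCCC was found in 12 of these 36, 8 of 23 tested members and 4 of 13 members below the filter, against 15.8% of 27025 genes with windows of the same length. A GATA word was found in 6 of the 36 against 27.1% of genes. The genes compared were not matched for base composition, and CCACNCCC is mostly G and C. Bases G and C made up 63.6% of the Ucp2, 77.2% of the Slc25a39, 61.6% of the Slc25a5 and 54.8% of the Ucp3 window. Any part of base composition in these shares was not tested. A match is a description of letters and not a binding site.

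Between the groups, no SLC25 carrier passed the test. With limma on log2(RPKM + 1), 0 of 28 tested members had an adjusted p under 0.05, where 0% of all 8302 tested rows did, and adjusted p ranged from 0.909 to 0.982. At an unadjusted p under 0.05 there were also 0 of 28, against 1.2% of all rows. Fitted values were higher in KO for 13 and lower for 15 (47% of all rows were higher), and log2 fold changes ran from -0.33 to 0.43. The median was -0.03, beside -0.02 over all rows. For 26 of the 28, the 95% interval of the log2 fold change lay within -1 to 1, as it did for 79.7% of all rows, and the exceptions were Slc25a39 and Slc25a36. Without WT replicate 3, 0 of 28 passed (0.012% of all rows) and 0 had an unadjusted p under 0.05 (2.2% of all rows). Fitted values were then higher in KO for 10 and lower for 18 (44.9% of all rows were higher). Log2 fold changes ran from -0.21 to 0.28, and all 28 intervals lay within -1 to 1. The sign of the fitted value turned in 9 of the 28 when that library was left out, and in 3586 of all 8302 rows. These intervals bound differences on the log2(RPKM + 1) scale only and do not show that levels were equal. That scale understates fold changes of low genes, and 17 of the 28 had means between 1 and 10 RPKM.

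**Figure D3:**
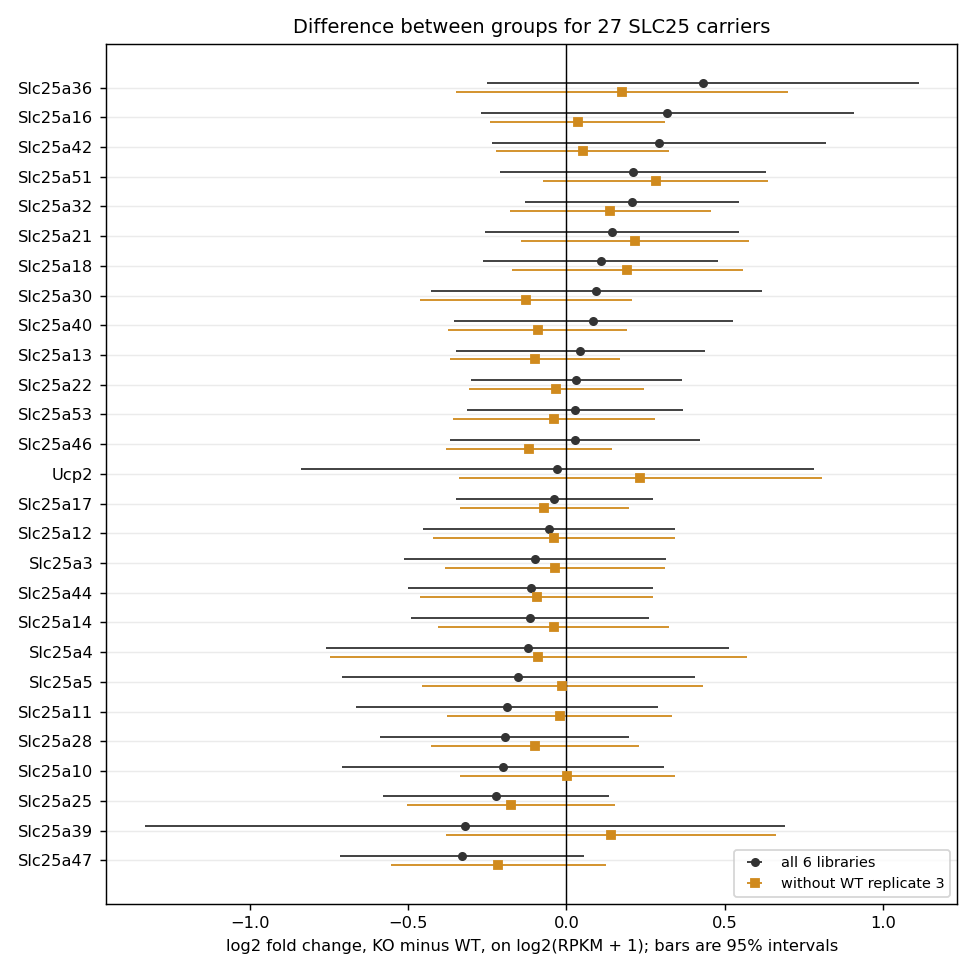
Log2 fold change (KO minus WT, on log2(RPKM + 1)) of 27 of the 28 tested SLC25 carriers with 95% limma intervals, for all 6 libraries (black circles) and without WT replicate 3 (orange squares). Every interval includes 0 in both fits, and that of Slc25a39 runs from -1.33 to 0.69 with all libraries, the widest of that fit, and from -0.38 to 0.66 without WT replicate 3.

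Among uncoupling proteins and their relatives, Ucp2 was at 993, 799 and 1534 RPKM in WT and at 1069, 853 and 1259 RPKM in KO. WT replicate 3 was highest and WT replicate 2 lowest, so the KO values lay inside the WT range. The log2 fold change was -0.03 (95% interval -0.84 to 0.78) and 0.23 (-0.34 to 0.81) without WT replicate 3. Ucp2 is also expressed by macrophages, and any part of these in its level was not tested. The macrophage marker sums were lower in KO as given above. By mean, 10 of the 12 markers were lower in KO, Mrc1 was higher and Cd163 was at 0 throughout. In bulk RNA, fewer cells of a type and less RNA per cell cannot be told apart. Slc25a14 and Slc25a30, relatives known from brain and kidney, had log2 fold changes of -0.12 and 0.09. Ucp1, the heat-producing protein of brown fat, was listed at 0 in every library, and Slc25a27, a relative known from brain, reached at most 0.129 RPKM.

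In the adenine nucleotide and phosphate group, all 4 tested members had lower fitted values in KO and 0 passed. Of all rows 47% were higher in KO. The direction of Slc25a5 and Slc25a3 turned with quantile normalization, scaling to the RPKM sum and removal of length trends. Slc25a5 was at 301, 280 and 388 RPKM in WT and at 242, 301 and 326 RPKM in KO. The groups overlapped, with the highest value again in WT replicate 3, and the log2 fold change was -0.15 (-0.71 to 0.41), or -0.01 without that library. Of the 50-base words in its longest coding transcript, 46.6% occur in transcripts of other annotated genes, most of them in Gm5560, so its level depends on how the authors' counting assigned shared reads. Slc25a3 was at 141, 134 and 157 RPKM in WT and at 126, 144 and 134 RPKM in KO, a log2 fold change of -0.10 (-0.51 to 0.32). Its relative spread was small, with an SD of 11.8 in WT and 9.13 in KO.

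The ADP/ATP carriers were at unequal levels. Slc25a4, the form that predominates in heart and muscle, was at 5.76, 4.88 and 5.76 RPKM in WT and at 3.88, 8.14 and 3.67 RPKM in KO. Slc25a5 exceeded it by a ratio of 52.2, 57.3 and 67.3 in WT and 62.3, 37.0 and 89.0 in KO, so the KO libraries spanned the WT range on both sides. Slc25a31, the form of male germ cells, reached at most 0.323 RPKM. Slc25a25, which exchanges ATP-Mg for phosphate under control of calcium, was at 5.21, 5.39 and 5.93 RPKM in WT and at 4.89, 3.81 and 5.12 RPKM in KO. The lowest WT value exceeded the highest KO value, and the log2 fold change was -0.22 (-0.58 to 0.14, limma adjusted p = 0.909). Its relatives Slc25a23 and Slc25a24 reached at most 0.298 and 0.443 RPKM, and Slc25a41 was listed at 0 throughout.

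Carriers of cofactors, nucleotides and glutathione had 6 of 9 tested members with higher and 3 with lower fitted values in KO. Of all rows 47% were higher, and 0 of the 9 passed the test. Slc25a39 was at 545, 469 and 1322 RPKM in WT and at 527, 477 and 691 RPKM in KO. Replicate 3 was the highest of each group, and the replicates numbered 1 and 2 lay close together in both. The log2 fold change was -0.32 (-1.33 to 0.69) with all libraries and 0.14 (-0.38 to 0.66) without WT replicate 3, so its direction rested on that library. Its paralog Slc25a40 had a mean of 4.05 RPKM over the 6 libraries, and its log2 fold change was 0.09 (-0.35 to 0.53).

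Slc25a51, which brings NAD into the matrix, was at 108, 107 and 125 RPKM in WT and at 144, 119.5 and 131 RPKM in KO. The KO libraries were each above their same-numbered WT library, and only WT replicate 3 overlapped the KO range. The log2 fold change was 0.21 (-0.21 to 0.63, limma adjusted p = 0.909), and 0.28 (-0.07 to 0.64) without WT replicate 3. Slc25a32, which carries folate or flavin adenine dinucleotide into the matrix, was at 1.55, 1.67 and 1.26 RPKM in WT and at 2.00, 1.90 and 1.71 RPKM in KO. Its groups did not overlap, and the log2 fold change was 0.21 (-0.13 to 0.55, limma adjusted p = 0.909).

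The highest fitted log2 fold change of the family was that of Slc25a36, a pyrimidine nucleotide carrier that the rule for named genes did not pick and that was chosen after its values were seen. It was at 2.52, 3.32 and 1.29 RPKM in WT and at 4.23, 4.004 and 2.25 RPKM in KO. KO replicate 3 lay inside the WT range, while each KO library exceeded its same-numbered WT library. The log2 fold change was 0.43 (-0.25 to 1.11) and 0.17 (-0.35 to 0.70) without WT replicate 3. With the replicate number as a block it was the only member with an unadjusted p under 0.05 in limma (0.0277, adjusted p = 0.715), where 3.9% of all rows had one. Part of its transcript is shared, with 11.8% of its 50-base words also in Gm13217. Its fellow pyrimidine carrier Slc25a33 stayed below the filter, with at most 0.491 RPKM.

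Slc25a17, a cofactor carrier of peroxisomes, had one of the narrowest spreads, at 16.7, 17.2 and 15.8 RPKM in WT and 15.5, 15.8 and 17.0 RPKM in KO. Its log2 fold change was -0.04 (-0.35 to 0.27). Slc25a16 and Slc25a42, linked to coenzyme A transport, had log2 fold changes of 0.32 and 0.29 with all libraries and of 0.04 and 0.05 without WT replicate 3, where both were lowest (3.37 and 3.35 RPKM). Slc25a26, which imports S-adenosylmethionine, reached at most 0.510 RPKM.

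Of the carriers of di- and oxocarboxylates, Slc25a11 and Slc25a10 had lower and Slc25a21 higher fitted values in KO, and none passed. Slc25a21, which moves oxoadipate and related acids, was at 22.0, 21.7 and 25.6 RPKM in WT and at 22.8, 23.8 and 30.6 RPKM in KO. Each KO library exceeded its same-numbered WT library, and the groups overlapped only through WT replicate 3. The log2 fold change was 0.14 (-0.26 to 0.55), and 0.22 (-0.14 to 0.58) without that library. The annotated transcript shares 5.47% of its 50-base words with its neighbour Pax9. Slc25a11, the oxoglutarate and malate exchanger of the malate-aspartate shuttle, was at 17.4, 16.0 and 23.9 RPKM in WT and at 15.2, 14.7 and 19.7 RPKM in KO. It was lower in KO within each number, yet the groups overlapped, and the log2 fold change moved from -0.19 (-0.66 to 0.29) to -0.02 without WT replicate 3. That of the dicarboxylate carrier Slc25a10 moved from -0.20 to 0.00.

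Amino acid carriers had 3 of 5 tested members with higher and 2 with lower fitted values (47% of all rows were higher), all within -0.11 to 0.11. The aspartate and glutamate exchanger Slc25a12 was at 16.8, 14.95 and 16.4 RPKM in WT and at 13.8, 13.9 and 18.9 RPKM in KO. It exceeded its liver-type paralog Slc25a13 by a ratio of 2.59, 2.63 and 3.85 in WT and 2.50, 2.54 and 3.28 in KO, highest in replicate 3 of each group. The log2 fold change was -0.05 (-0.45 to 0.34) for Slc25a12 and 0.04 (-0.35 to 0.44) for Slc25a13.

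The row of the glutamate carrier Slc25a22 is shared with Lrdd, a gene of the p53 pathway, so its values cannot be assigned to either gene. It was at 16.4, 18.8 and 15.3 RPKM in WT and at 16.9, 17.3 and 17.2 RPKM in KO, a log2 fold change of 0.03 (-0.30 to 0.36). The branched-chain amino acid carrier Slc25a44 was at 9.42, 9.56 and 9.89 RPKM in WT and at 8.14, 7.69 and 10.96 RPKM in KO, with KO replicate 3 above all WT libraries and the other KO libraries below them. Slc25a18, a second glutamate carrier, lay near the filter at 0.824, 1.007 and 1.28 RPKM in WT and 1.05, 1.14 and 1.38 RPKM in KO. Its groups overlapped through WT replicate 3, and the log2 fold change was 0.11 (-0.26 to 0.48). The ornithine carrier Slc25a15, of the urea cycle, and its relatives Slc25a2 and Slc25a29 reached at most 0.806, 0.526 and 0.226 RPKM.

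Slc25a28, mitoferrin 2, is the iron importer of most tissues outside the red cell lineage. It was at 8.25, 8.43 and 10.4 RPKM in WT and at 8.23, 8.62 and 6.46 RPKM in KO, with a log2 fold change of -0.20 (-0.59 to 0.20). Its highest and lowest values were in the libraries numbered 3.

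Of the less characterised members, Slc25a46, an outer membrane protein of mitochondrial dynamics, was at 14.1, 14.0 and 10.2 RPKM in WT and at 13.3, 12.2 and 13.2 RPKM in KO. Without WT replicate 3, its lowest library, every KO value lay below WT, and the log2 fold change turned from 0.03 (-0.37 to 0.42) to -0.12 (-0.38 to 0.14). Slc25a47, a carrier known from liver, was at 1.56, 1.87 and 2.45 RPKM in WT and at 1.28, 1.25 and 1.48 RPKM in KO. The groups were separate, and the log2 fold change of -0.33 (-0.72 to 0.06) had the lowest unadjusted p of the family in limma (0.0826, adjusted p = 0.909). The hepatocyte marker sums were 87.9, 57.1 and 42.2 RPKM in WT and 82.7, 140 and 15.3 RPKM in KO, and their part in the result was not tested. Slc25a53 had a log2 fold change of 0.03 (-0.31 to 0.37). Slc25a34, Slc25a35, Slc25a43 and Slc25a45 reached at most 0.0140, 0.0763, 0.0425 and 0.494 RPKM, and Slc25a48 and Slc25a54 were listed at 0 throughout. A listed 0 can be a failed estimate in this table.

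In 3 of the 28 tested members the groups did not overlap, against 4.54% of all rows. Slc25a32 was higher in KO (2.18% of all rows), and Slc25a25 and Slc25a47 were lower (2.36%). Without WT replicate 3 there were 7, against 11.3% of all rows, with Slc25a51, Slc25a21 and Slc25a18 added as higher and Slc25a46 as lower. Of the 7, 4 were higher in KO (5.42% of all rows) and 3 lower (5.9%). Taking libraries by number, KO exceeded WT in all 3 numbers for 5 members (Slc25a18, Slc25a21, Slc25a32, Slc25a36 and Slc25a51), against 10.8% of all rows. KO was below WT in all 3 numbers for 4 members (Slc25a10, Slc25a11, Slc25a25 and Slc25a47), against 20.1% of all rows. As shares of the 28 these are 17.9% and 14.3%, and 0 of the 9 passed the test.

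**Figure D4:**
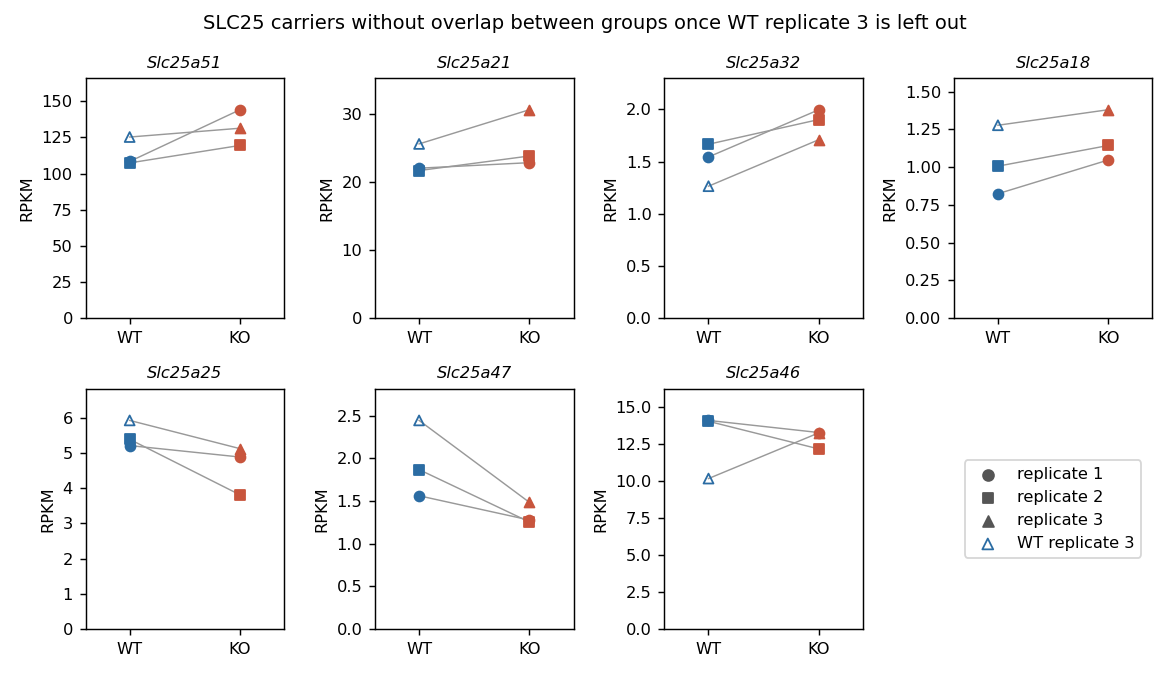
RPKM by library for the 7 carriers whose groups do not overlap when WT replicate 3 is left out (circle, square and triangle for replicates 1, 2 and 3, open triangle WT replicate 3), with lines joining libraries of the same number. Slc25a51, Slc25a21, Slc25a32 and Slc25a18 are higher in KO within every number, Slc25a25 and Slc25a47 lower, and Slc25a46 is lower except for number 3.

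WT replicate 3 was the highest library in 11 and the lowest in 10 of the 28 members (39.3% and 35.7%, beside 41.7% and 36.9% of all rows). Its difference from the mean of WT replicates 1 and 2 ran from 1.38 on the log2 scale for Slc25a39 to -0.85 for Slc25a16. Transcripts of members highest there had a median length of 1685 bases, and those of members lowest there 3170.5 bases. Across the 28 members that difference had a Spearman correlation of -0.58 with transcript length, and of -0.66 across 8261 tested rows. Genes of a library share its total and its RNA, so these are descriptions. KO replicate 3 departed from the other KO libraries in the same direction as WT replicate 3 from the other WT libraries in 18 of 28 members. The same share over all rows was not counted, so no reading of this count is given.

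**Figure D5:**
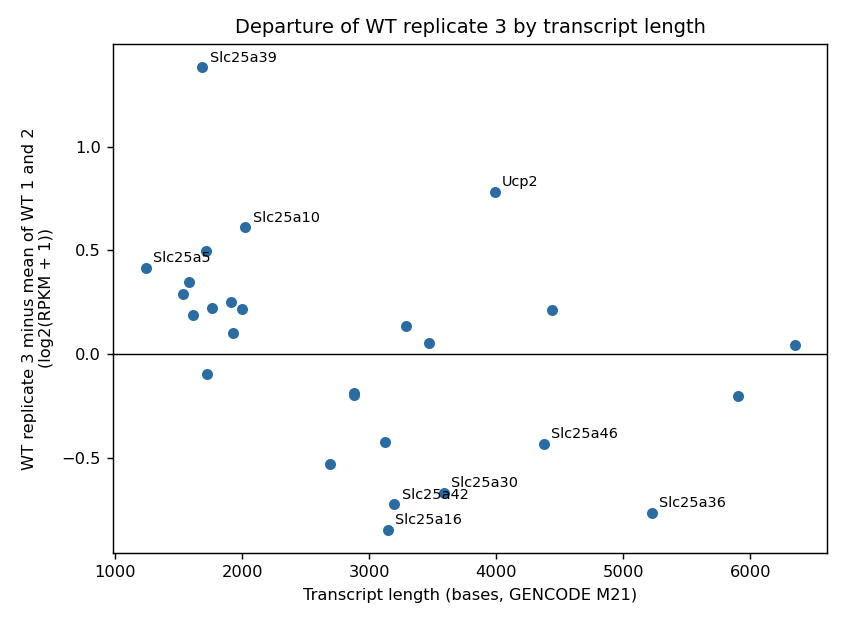
Difference of WT replicate 3 from the mean of WT replicates 1 and 2 (log2(RPKM + 1)) against transcript length in bases, with 1 point for each of 27 of the 28 tested SLC25 carriers. Slc25a39 lies highest at 1.38, Slc25a16 lowest at -0.85, and the Spearman correlation over all 28 is -0.58.

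Other transport proteins of the mitochondrial membranes were taken from a list of 34 names, of which 27 were found and 25 tested. The list includes Slc25a1, Slc25a20, Slc25a37 and Slc25a38, the SLC25 carriers that the rule leaves out. With limma 0 of 25 passed and 0 had an unadjusted p under 0.05, against 0% and 1.2% of all rows. In KO 8 fitted values were higher and 17 lower (47% of all rows were higher), with a median of -0.11. Without WT replicate 3, 15 were higher and 10 lower (44.9% of all rows were higher), and the median was 0.03. The lowest log2 fold changes were -0.43 for Mpc2, a subunit of the pyruvate carrier, -0.42 for the cholesterol-binding protein Tspo and -0.40 for its erythroid paralog Tspo2. Mpc2 was at 59.5 to 92.9 RPKM outside WT replicate 3 and higher in that library. Tspo and Tspo2 were at 824 and 899 RPKM there, against 283 to 421 and 341 to 465 RPKM in the other libraries. Among the higher values were 0.19 for the carnitine carrier Slc25a20 and 0.18 for the row of Abcb10, a partner of the mitochondrial iron importer, which it shares with Nup133. The median of the 28 tested members moved less with WT replicate 3, from -0.03 to -0.04 without it. Fitted values nonetheless changed sign in 9 of the 28, in 13 of the 25 other transporters and in 3586 of all 8302 tested rows.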

How the data were processed

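Total RNA was made into TruSeq v2 libraries and sequenced on an Illumina NextSeq, per the labels' protocols. The authors deposited RPKM values for 6 libraries, made with TopHat and Cufflinks on build mm9 per the submitters' processing notes. Their versions, the gene annotation and any strand option were not given in the sources used here. Of 23119 rows, 25 carried a number for a name (a mean of 0.158% of the RPKM sum) and were left out. For the repeated symbol Slc25a18 the row with the highest mean RPKM was used. The absolute read depth is not known. Ratios of values under 0.05 RPKM put 4 libraries at 79.6% to 93.6% of the depth of WT replicate 2, and that of WT replicate 3 was not resolved.

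Groups were compared with limma 3.58.1 (R 4.3.3), allowing the variance to follow the mean, on values transformed as log2(RPKM + 1), over the 8302 rows with a mean of at least 1 RPKM, with Benjamini-Hochberg adjustment at 0.05 over all of them. The limma fit was tested on simulated data. The simulation drew each row independently, so it held no departure shared across rows like that of WT replicate 3. The fold-change scale understates changes of low genes. Tfam was compared with an exact permutation test. Members, lists and roles were chosen with earlier results of these data known. Members described in full were the 12 with the highest mean, those with an unadjusted p under 0.05, a log2 fold change of at least 0.5 in size or groups that did not overlap with or without WT replicate 3. Slc25a4, Slc25a28 and Slc25a36 were added to these after their values were seen. Of the other transporters, the 3 largest changes in each direction were to be named. A member and a transporter that these rules cover are not reported here by name, though the counts include them. Deviations from the group means correlated at 0.461, 0.171 and 0.526 between libraries numbered 1, 2 and 3. Each was above 0.1, the limit set for treating same-numbered libraries as pairs, which rests on no label. Of unlike-numbered libraries, WT 2 and KO 1 correlated at 0.4, above the value for number 2, and the others at -0.507 to 0.03. The check therefore does not establish that the numbers mark pairs. Pairs entered only the comparisons by number and the replicate block, and the main limma fit had group as its only factor. Transcript lengths and shared 50-base words came from GENCODE M21, with lengths for 99.5% of tested rows. Promoters came from RefSeq. Alternatives were leaving out each library, the replicate block, another pseudocount, other filters, quantile normalization, scaling to the RPKM sum, removal of length trends, no variance trend and library weights. Figures were drawn with matplotlib 3.10.9.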

Additional observations from a re-analysis of the deposited data

How the results depend on the processing

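No SLC25 carrier passed an adjusted p of 0.05 in limma under any of the 16 alternatives run. At an unadjusted p under 0.05 there was 1 of 28 without KO replicate 2 (81 of all 8302 rows) and with the replicate block (324 rows), 1 of 42 with no filter on low values (388 rows) and 5 of 28 with library weights (1145 rows). In the weighted fit 60 of all rows passed the adjusted threshold, and WT replicate 1 had a weight of 21.4 against 0.0859 for WT replicate 3. Leaving out 1 library in turn gave 0 to 2 rows past the threshold among all rows, 3 to 8 carriers whose groups did not overlap, and a median carrier log2 fold change of -0.0563 to 0.0199, with -0.19 to 0.03 for other transporters. The non-overlapping carriers numbered 7 without WT replicate 2 or WT replicate 3 and 8 without KO replicate 2 or KO replicate 3, where 14.2%, 11.3%, 12.3% and 23.9% of all rows did not overlap. With length trends removed 5 carriers did not overlap (6.49% of all rows), and the median was 0.0273, with or without the replicate block. Scaling to the RPKM sum moved the median of all rows from -0.02 to 0.17, that of the carriers to 0.17 and that of other transporters to 0.10. The replicate block changed no call. Leaving out 1 library in turn, log2 fold changes ran from -0.24 to 0.23 for Ucp2, from -0.60 to 0.14 for Slc25a39, from -0.12 to 0.10 for Slc25a46, from -0.20 to 0.0197 for Slc25a12 and from -0.0314 to 0.11 for Slc25a22. Direction also turned with scaling to the RPKM sum for Ucp2 (0.20), Slc25a3 (0.13), Slc25a5 (0.0803), Slc25a11 (0.0336), Slc25a12 (0.16), Slc25a17 (0.18) and Slc25a44 (0.0911). It turned with quantile normalization for Ucp2 (0.24), Slc25a3 (0.093) and Slc25a5 (0.0328), and with library weights for Ucp2 (0.0281) and Slc25a46 (-0.12). With length trends removed, alone or with the replicate block, it turned for Slc25a3 (0.0463), Slc25a5 (0.0506), Slc25a17 (0.0915) and Slc25a46 (-0.0772). The cause was not tested. Slc25a18, Slc25a21, Slc25a25, Slc25a32, Slc25a47 and Slc25a51 kept their direction in each alternative that tested them. All were among the carriers whose groups did not overlap with or without WT replicate 3. Refits of the same libraries are therefore no separate support for their direction.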
